A study of Mus musculus with 6 samples.

Results

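The tricarboxylic acid cycle genes examined here were Cs, Idh3a, Idh3b, Idh3g, Ogdh, Sucla2, Suclg1, Fh1 and Mdh2, taken from the deposited gene table by their symbols. All 9 were found among the 27179 genes listed, and all 9 passed the filter on low values with which 13052 genes were tested. The data are RNA sequencing libraries of organoids from wild-type (WT) mouse small intestine, cultures of intestinal epithelium grown in drops of Matrigel, a basement membrane gel, in the medium Intesticult. One group of 3 libraries came from organoids given the thyroid hormone T3 at 1e-07 M for 17 h and the other group of 3 from organoids given vehicle for the same time. The study asked how transcripts of these cultures respond to T3. Strain, age and sex are not given in the sources used here. Nor do the labels say whether each library of a group had its own culture or mouse, so the p-values measure only how these libraries vary, and that variation may be technical.

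The tricarboxylic acid cycle runs in the mitochondrial matrix. Citrate synthase joins acetyl-CoA to oxaloacetate, and a series of oxidations then releases carbon dioxide, passes electrons to the respiratory chain as NADH and reduced flavin, and regenerates oxaloacetate. The cycle also supplies precursors for lipid, amino acid and glucose synthesis, and intestinal epithelial cells are known to feed it with glutamine carbon. Thyroid hormone is known for raising oxidative metabolism in many tissues through nuclear receptors that bind DNA next to their target genes.

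Levels are given as normalized reads, which are reads of a gene after the authors' scaling and rounding, and a gene was called when the limma test across all genes gave an adjusted p-value under 0.05. Normalized reads of a vehicle library totalled between 28197080 and 28611883, and those of a T3 library between 29510422 and 29974091. The mean chi-square per gene between libraries of a group was 4.89 to 14.9, and the pairs with T3 replicate 3 had the highest values, 13.9 and 14.9. The epithelial list of 7 genes summed to between 171735 and 181106 normalized reads with vehicle and between 203366 and 209058 with T3. Of these 7 genes, 5 were called higher, 1 lower (Krt18, mean 13920 to 12214) and 1 neither. The mesenchymal list of 8 genes summed to at most 389 in any library and the endothelial list of 3 to at most 12, with Kdr and Cdh5 at 0 in every library. The immune list of 5 genes summed to between 125 and 160 with vehicle and between 392 and 408 with T3. Itgam alone passed the test among them.

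Of the 9 cycle genes, 7 were called higher with T3 and none lower. Among all genes tested, 24.0% were called higher and 20.8% lower. The 7 were Sucla2, Idh3a, Mdh2, Ogdh, Cs, Suclg1 and Idh3b, with rises from 1.08-fold to 1.55-fold, and Idh3g and Fh1 were not called. The median log2 fold change over the 9 was 0.49, beside -0.0089 over all genes tested, whose 5th and 95th percentiles were -0.68 and 0.79. In all 9 the lowest T3 library lay above the highest vehicle library on the authors' scaling, which held for 28.4% of all genes tested. That scaling leaves the T3 libraries with higher totals. At equal column totals the log2 fold changes of Fh1 and Idh3g were only 0.0036 and 0.021. The rises of Idh3b, Idh3g and Fh1 were all smaller than those of the other 6. The 9 are only a part of the cycle and were chosen with earlier results of these data known. Of 10 other cycle subunits tested, 7 were called higher and 3 lower.

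**Figure D1:**
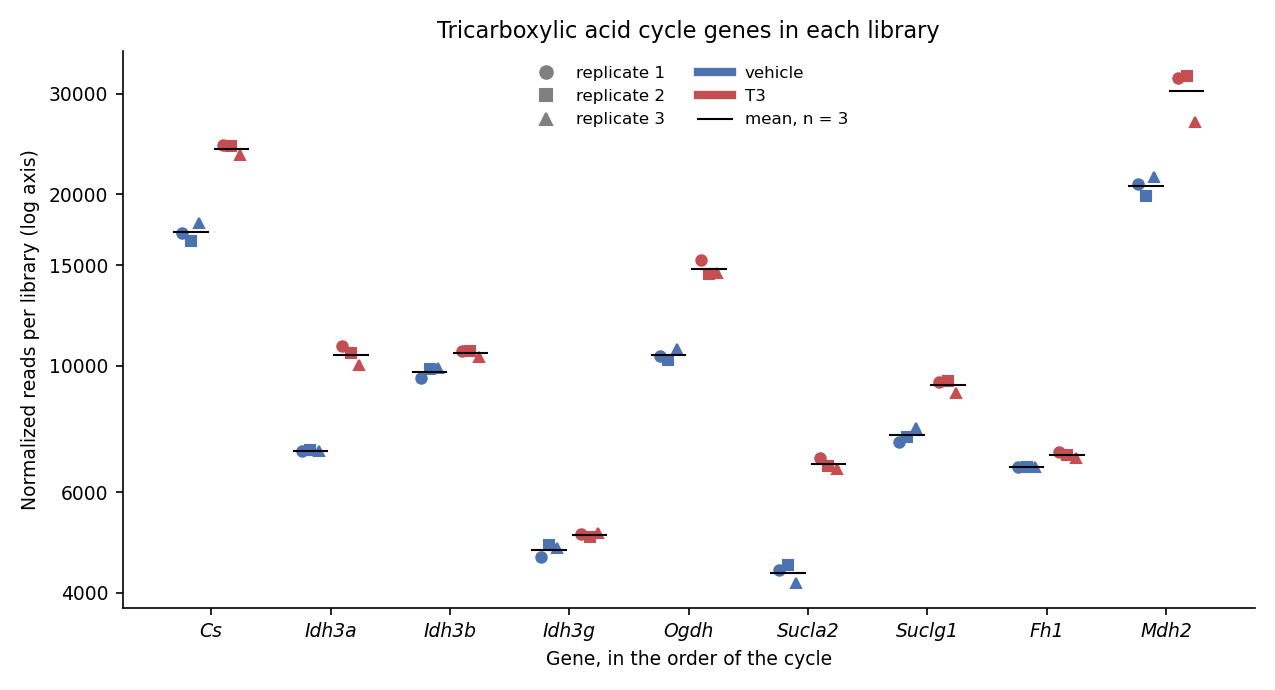
Normalized reads of the 9 cycle genes in each of the 6 libraries (log axis), with circles, squares and triangles for replicates 1, 2 and 3, blue for vehicle, red for T3 and a black line for the mean of 3 libraries. The T3 libraries lie above the vehicle libraries for every gene, by a wide gap for Cs, Idh3a, Ogdh, Sucla2 and Mdh2 and by a narrow one for Idh3g and Fh1.

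Upstream sequence was taken from RefSeq (GRCm38.p6), where 8 of the 9 genes matched by gene ID and Idh3a did not. For 7 of the 8 the start site was the gene start given by the authors. That of Cs lay 105 bases upstream of it, so the window searched for Cs ended before that gene start. The 250 bases before the start site are shown for Sucla2, the member with the largest fold change, and for Fh1, the member with the smallest. In both, capitals mark the motif AGGTCA or its reverse complement, the core sequence recognised by thyroid hormone receptors and by many other nuclear receptors. The Sucla2 stretch is chr14:73552536-73552785 on the plus strand and the Fh1 stretch is chr1:175625636-175625885 on the minus strand, each written 5′ to 3′ toward the gene.
Sucla2: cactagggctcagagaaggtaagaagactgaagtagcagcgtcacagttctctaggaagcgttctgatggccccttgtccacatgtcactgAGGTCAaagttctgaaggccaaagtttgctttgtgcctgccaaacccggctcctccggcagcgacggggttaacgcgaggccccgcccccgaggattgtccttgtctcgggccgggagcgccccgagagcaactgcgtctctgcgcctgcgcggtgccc
Fh1: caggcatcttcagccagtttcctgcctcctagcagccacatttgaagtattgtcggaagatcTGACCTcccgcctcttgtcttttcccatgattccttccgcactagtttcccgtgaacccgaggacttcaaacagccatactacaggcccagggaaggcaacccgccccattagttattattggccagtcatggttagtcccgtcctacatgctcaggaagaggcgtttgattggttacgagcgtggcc
The motif began 159 bases before the start site in Sucla2 and 188 bases before it in Fh1. Idh3g also held it, 14 bases past the start site. It was thus in 3 of 8 windows that ran from 250 bases before to 50 bases after the start, and in 16.0% of the 27025 such windows in the table, searching both strands and using the first window of each gene. None of the 8 windows held AGGTCA repeated in the same direction with 4 bases between, TNAAGGTCA, GCATGCGC or CCGGAAGT. Those are known elements for thyroid hormone receptors, estrogen-related receptors, NRF1 and ETS factors, and 0.0111%, 1.24%, 2.80% and 3.99% of all windows held them. TNAAGGTCA contains AGGTCA, so these searches overlap. A match is only a description of the letters. Sucla2, which held AGGTCA, was called higher, and Fh1 and Idh3g, which also held it, were not called. Any link between the motif and the response to T3 was not tested.

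Cs encodes citrate synthase, the enzyme of the first step (gene ID 12974, mm10 chr10:128337832-128362479, 11 exons). It stood at 17057, 16568 and 17799 normalized reads in vehicle replicates 1 to 3 and at 24418, 24301 and 23374 in the T3 replicates. The groups were 5575 reads apart at their nearest libraries. The rise was 1.40-fold (log2 0.49 ± 0.04 SE, adjusted p = 1.63e-05).

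NAD-dependent isocitrate dehydrogenase is built from an alpha subunit that carries the catalytic site and from beta and gamma subunits with structural and regulatory roles. Idh3a, the alpha subunit (gene ID 67834, chr9:54586511-54604662, 11 exons), stood at 7103, 7114 and 7095 with vehicle and at 10811, 10550 and 10038 with T3. All T3 libraries were well above the vehicle libraries, which lay within 19 reads of each other. It rose 1.47-fold (log2 0.56 ± 0.04 SE, adjusted p = 3.29e-06).

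Idh3b, the beta subunit (gene ID 170718, chr2:130279309-130284451, 12 exons), stood at 9520, 9887 and 9893 with vehicle and at 10631, 10606 and 10373 with T3. The groups did not overlap but came within 480 reads of each other. The rise was 1.08-fold (log2 0.11 ± 0.04 SE, adjusted p = 0.0333), and it was called in only 7 of 16 alternative analyses, with adjusted p from 0.0285 to 0.357. The call was lost without vehicle replicate 1 (adjusted p = 0.0934), vehicle replicate 2 (0.0685), T3 replicate 1 (0.115) or T3 replicate 2 (0.101). Its exons share 5 bases with Nop56 on the opposite strand, and no other member shares an exon base with a listed gene.

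Idh3g, the gamma subunit (gene ID 15929, chrX:73778963-73786897, 13 exons), stood at 4629, 4851 and 4801 with vehicle and at 5076, 5002 and 5087 with T3. The nearest libraries of the groups were 151 reads apart. The log2 fold change was 0.09 (95% confidence interval 0.0059 to 0.17) and was not called (adjusted p = 0.0773). Idh2, the separate NADP-dependent mitochondrial isocitrate dehydrogenase and not one of the 9, fell 1.47-fold from 5292 ± 175 to 3609 ± 10.1 (adjusted p = 2.90e-06).

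The isocitrate dehydrogenase subunits were also compared as ratios within each library, which do not depend on the scaling between libraries. Per base of exon, the ratio of Idh3a to Idh3b was 0.472, 0.455 and 0.453 with vehicle and 0.643, 0.629 and 0.612 with T3. The ratio of Idh3a to Idh3g went from 0.827 ± 0.0202 to 1.15 ± 0.0471 (SD, n = 3), and neither ratio overlapped between groups. The ratio of Idh3b to Idh3g was 1.80 ± 0.0105 and 1.83 ± 0.0363, with overlap. In all, 5 ratios were compared by an exact two-sided permutation test, in which 3 against 3 libraries cannot give p below 0.1. Idh3a to Idh3b and Idh3a to Idh3g reached this smallest value (exact p = 0.1, adjusted over the 5 ratios 0.125) with changes of 1.36-fold and 1.39-fold. Idh3b to Idh3g changed 1.02-fold (exact p = 0.3, adjusted 0.3).

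Ogdh encodes the first component of the oxoglutarate dehydrogenase complex, which makes succinyl-CoA (gene ID 18293, chr11:6291597-6359094, 26 exons). It stood at 10418, 10252 and 10703 with vehicle and at 15314, 14507 and 14527 with T3. The groups were 3804 reads apart, and the rise was 1.41-fold (log2 0.50 ± 0.04 SE, adjusted p = 7.72e-06). Dlst and Dld, other components of the complex, rose less. Dlst, the succinyl-transferring component, rose 1.27-fold from 7311 ± 315 to 9275 ± 124. Dld, a component shared with the pyruvate dehydrogenase complex, rose 1.10-fold from 6573 ± 244 to 7232 ± 143, a call kept in 10 of 16 alternatives. It was lost without vehicle replicate 3 (adjusted p = 0.0535), T3 replicate 1 (0.0544) or T3 replicate 2 (0.0742). It was also lost with upper-quartile scaling (0.0830), equal column totals (0.169) or no mean-variance trend (0.0557). Ogdhl, a relative of Ogdh at a far lower level, fell 1.60-fold from 114 ± 14.6 to 71.0 ± 9.17.

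Succinyl-CoA ligase pairs a common alpha subunit, Suclg1, with an ADP-forming beta subunit, Sucla2, or a GDP-forming one, Suclg2. Sucla2 (gene ID 20916, chr14:73552786-73596142, 11 exons), whose upstream sequence is printed above, stood at 4382, 4473 and 4171 with vehicle and at 6885, 6663 and 6604 with T3. The groups were 2131 reads apart, and its rise of 1.55-fold was the largest of the 9 (log2 0.63 ± 0.04 SE, adjusted p = 1.74e-06). Suclg1 (gene ID 56451, chr6:73248505-73276907, 9 exons) stood at 7362, 7512 and 7779 with vehicle and at 9378, 9410 and 8964 with T3. It rose 1.23-fold (log2 0.29 ± 0.04 SE, adjusted p = 0.000249), with 1185 reads between the groups.

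Suclg2, not one of the 9, went the other way, falling 1.17-fold from 5402 ± 53.3 to 4636 ± 100 normalized reads (adjusted p = 0.000782). Per base of exon, the ratio of Sucla2 to Suclg2 was 0.876, 0.887 and 0.843 with vehicle and 1.57, 1.56 and 1.57 with T3. The ADP-forming transcript was therefore the lower of the pair in every vehicle library and the higher in every T3 library, a change of the ratio by 1.80-fold. The ratio of Suclg1 to Sucla2 went from 2.64 ± 0.162 to 2.09 ± 0.0461 (SD, n = 3), or to 0.792 of its vehicle value. Both ratios were without overlap between groups (exact permutation p = 0.1, the smallest possible, and 0.125 adjusted).

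**Figure D2:**
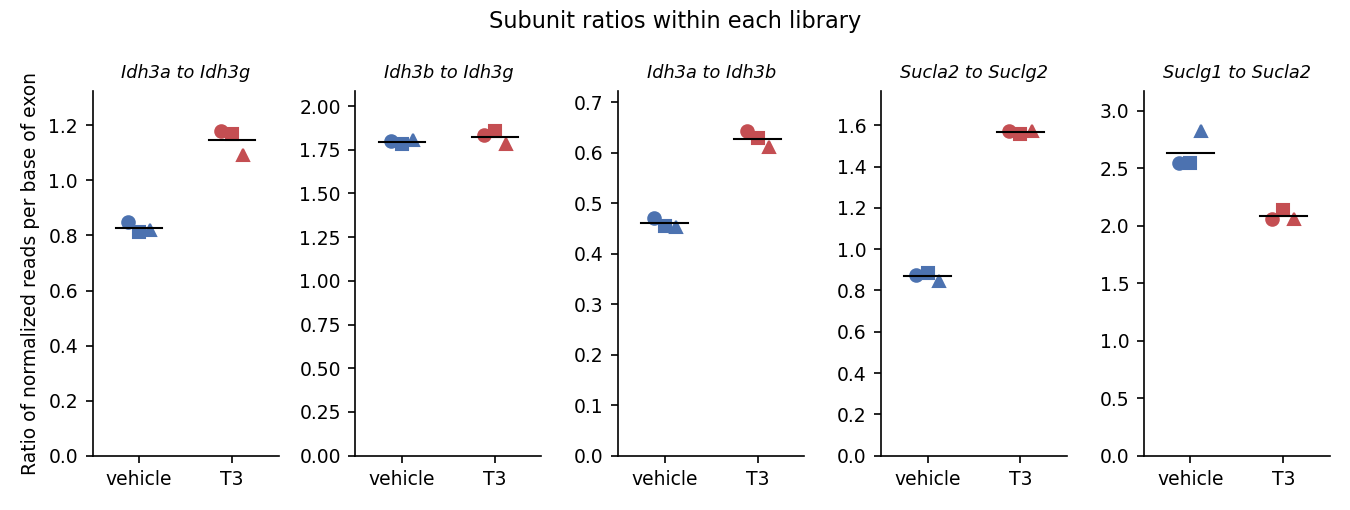
Ratios of normalized reads per base of exon between pairs of subunits in each of the 6 libraries, with vehicle in blue, T3 in red, circles, squares and triangles for replicates 1, 2 and 3, and a black line for the mean of 3. Sucla2 to Suclg2 rose from 0.869 to 1.57 on average, both Idh3a ratios rose, Suclg1 to Sucla2 fell, and the Idh3b to Idh3g ratio overlapped between groups.

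Succinate dehydrogenase, the next enzyme and also complex II of the respiratory chain, has no member among the 9. Its subunits were higher with T3 by 1.31-fold for Sdhd, 1.27-fold for Sdhb and 1.16-fold for Sdha. Sdhc, an anchor subunit, was 1.09-fold higher, a call kept in 6 of 16 alternatives. It was lost without vehicle replicate 1 (adjusted p = 0.0872), vehicle replicate 2 (0.121), T3 replicate 1 (0.126) or T3 replicate 2 (0.122). It was also lost with upper-quartile scaling (0.164), equal column totals (0.262), no mean-variance trend (0.0858) or a replicate block (0.0787). The same held with no filter on low values (0.0536) and in the authors' deposited table (0.0528).

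Fh1 encodes fumarase, which turns fumarate into malate (gene ID 14194, chr1:175601378-175625635, 10 exons). It stood at 6658, 6658 and 6654 with vehicle and at 7067, 6990 and 6905 with T3. The T3 libraries were all higher, by at least 247 reads, but the log2 fold change was 0.07 (95% confidence interval -0.0056 to 0.15) and was not called (adjusted p = 0.12). It was called in 0 of 16 alternatives, as was Idh3g. Both had log2 values above 0 in each of them, but hardly so at equal column totals. There Fh1 was at log2 0.0036 (adjusted p = 0.941) and Idh3g at 0.021 (adjusted p = 0.687).

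Mdh2, the mitochondrial malate dehydrogenase that regenerates oxaloacetate (gene ID 17448, chr5:135778649-135790386, 9 exons), had the highest level. It stood at 20807, 19873 and 21404 with vehicle and at 31928, 32189 and 26698 with T3. T3 replicate 3 was the lowest T3 library by a wide margin and still 5294 reads above the highest vehicle library. The rise was 1.46-fold (log2 0.54 ± 0.07 SE, adjusted p = 0.000213), and log2 0.63 without T3 replicate 3. Mdh1, the cytosolic enzyme, rose 1.25-fold from 13812 ± 193 to 17320 ± 562.

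**Figure D3:**
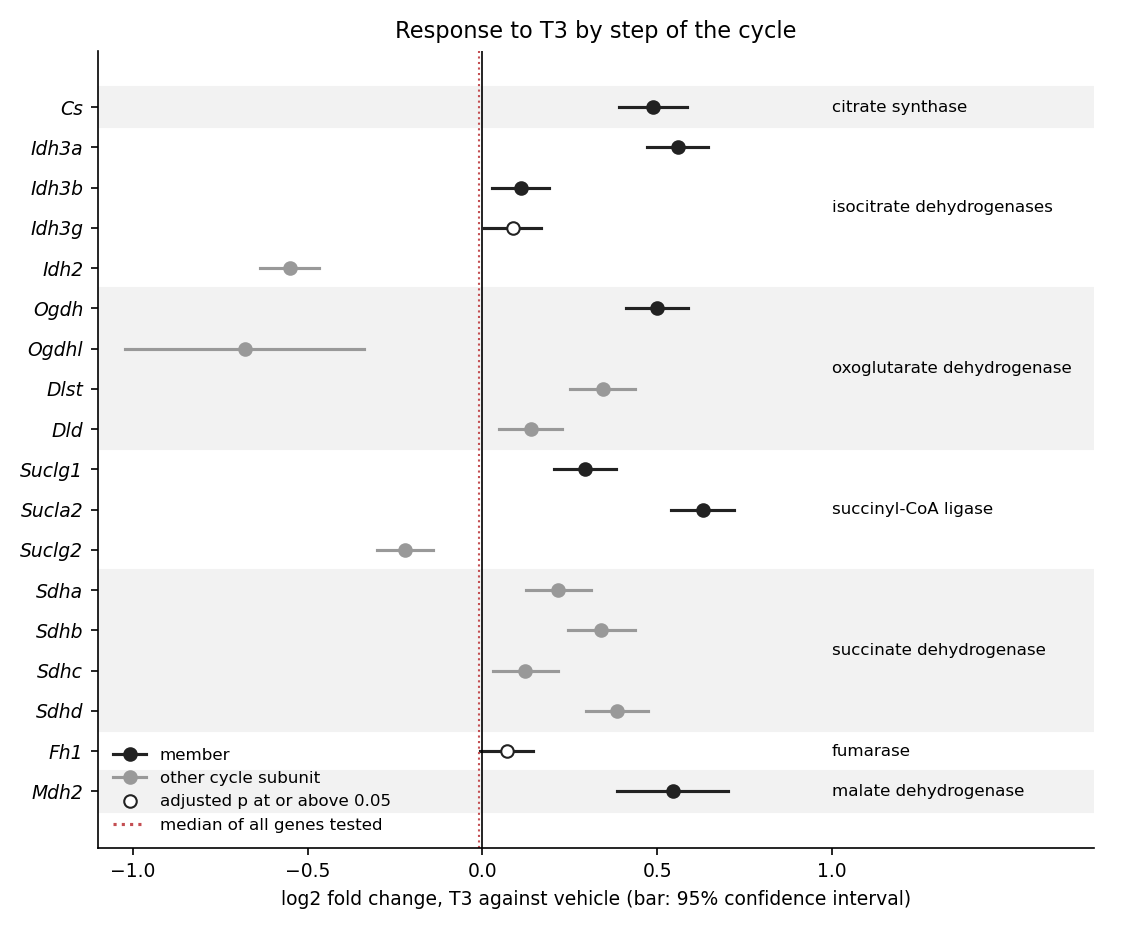
Log2 fold change of T3 against vehicle (x axis) with its 95% confidence interval for the 9 members (black) and 9 other cycle subunits (grey), ordered by step; open circles were not called and the dotted line is the median of all genes tested. Most subunits lie above 0, Idh3g and Fh1 are open, and Idh2, Ogdhl and Suclg2 lie below 0.

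T3 replicate 3 was the lowest T3 library for 7 of the 9 members, all but Idh3g and Ogdh, and T3 replicate 1 the highest for 6. The 9 genes together made up 0.311% ± 0.00465 (SD, n = 3) of the vehicle libraries and 0.396% ± 0.013 of the T3 libraries, as a share of normalized reads. The vehicle libraries lay between 0.307% and 0.316% and the T3 libraries between 0.381% and 0.405%. Without T3 replicate 3, 7 members were again called higher.

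Levels were compared between members only per kilobase of exon. With vehicle, Mdh2 led at 16142 ± 602 normalized reads per kilobase. Idh3b at 6425 ± 141 and Cs at 6061 ± 219 followed and overlapped each other, and then came Suclg1 (5425 ± 152), Fh1 (4079 ± 1.42), Idh3g (3577 ± 87.5), Idh3a (2955 ± 3.97), Sucla2 (2060 ± 73.5) and Ogdh (1497 ± 32.7). With T3, Mdh2 at 23613 ± 2416 was again first and Ogdh at 2117 ± 65.9 last. Cs at 8498 ± 202 then stood above Idh3b at 6932 ± 93.6 without overlap. Idh3a, the seventh of 9 with vehicle, was the fifth with T3 at 4354 ± 164, overlapping Fh1 at 4281 ± 49.7. In both groups the other neighbours in this order did not overlap, although levels of different genes can also differ by sequence and mapping.

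The other subunits of the cycle went both ways. Of 11 listed, 10 were tested, and 7 were called higher (among them Dlst, Dld, Sdha, Sdhb, Sdhc and Sdhd) and 3 lower (Idh2, Ogdhl and Suclg2), with a median log2 fold change of 0.18. Csl was near 0 and not tested. The counts of this list and of the lists that follow stand beside 24.0% higher and 20.8% lower over all genes tested.

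Of 13 genes tested that bring pyruvate into the cycle, 6 were higher and 1 lower, with a median log2 fold change of 0.19. Pdhb and Dlat, subunits of the pyruvate dehydrogenase complex, rose 1.92-fold from 3186 ± 98.7 to 6123 ± 625 and 1.63-fold from 4041 ± 37.6 to 6584 ± 369. Mpc2, part of the mitochondrial pyruvate carrier, rose 1.34-fold and Pdhx, a structural subunit, 1.19-fold. The gene called lower was Pdk3, a kinase that inhibits the complex, named after its value was seen. It was 1.11-fold lower, a call kept in 11 of 16 alternatives and lost in the authors' deposited table and without vehicle replicate 2 (adjusted p = 0.0674), vehicle replicate 3 (0.0662), T3 replicate 1 (0.103) or T3 replicate 2 (0.0570).

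Genes that fill or drain the cycle were called higher in 8 of 15 cases and lower in 2, with a median log2 fold change of 0.21. Me2, a mitochondrial malic enzyme that makes pyruvate from malate, rose 2.28-fold from 4510 ± 83.0 to 10300 ± 227 (adjusted p = 1.69e-08). Got1, the cytosolic aspartate aminotransferase, rose 2.21-fold, and Gpt, an alanine aminotransferase, 1.55-fold. The 2 lower genes, named after their values were seen, were Glud1, glutamate dehydrogenase, 1.20-fold lower, and Pck2, the mitochondrial phosphoenolpyruvate carboxykinase, 1.17-fold lower.

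Carriers of cycle intermediates were higher in 5 of 6 tested cases, with a median of 0.35. Slc25a1, the citrate carrier, rose 1.59-fold, Slc25a10, the dicarboxylate carrier, 1.39-fold, Slc25a12, an aspartate-glutamate carrier, 1.29-fold and Slc25a11, the oxoglutarate carrier, 1.23-fold. Of 5 cytosolic isoforms and partners tested, Mdh1 rose, Me1, the cytosolic malic enzyme, fell 1.29-fold and 3 were not called.

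For lipoylation and assembly of these enzymes 3 of 7 genes were higher and none lower. Lipt2, which places octanoyl groups on the way to lipoic acid, rose 1.59-fold. Sdhaf4 and Sdhaf1, assembly factors of succinate dehydrogenase, rose 1.45-fold and 1.16-fold, and the call of Sdhaf1 was lost with equal column totals (adjusted p = 0.0635) and without T3 replicate 1 (0.0510). Among 8 regulators of mitochondrial genes 2 were higher and 2 lower, which is near the 24.0% and 20.8% of all genes tested. The coactivator gene Ppargc1a rose 5.19-fold and the nuclear receptor gene Esrra 1.29-fold, while Pprc1 fell 1.18-fold and Tfam, the mitochondrial DNA packaging factor, 1.15-fold.

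Beside the cycle members, 30 of 38 genes listed by their Nduf symbols for respiratory complex I were called higher and none lower. Their median log2 fold change was 0.20. The list includes Ndufa4 and Ndufa4l2, and membership in the complex was not checked gene by gene. Of 78 genes listed by Mrpl and Mrps symbols as mitochondrial ribosomal proteins, 24 (30.8%) were higher and 4 lower, with a median of 0.07. Over all genes tested 24.0% were higher. This list too was not checked gene by gene, and it includes Mrps36. The difference between these lists and the cycle members was not tested.

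**Figure D4:**
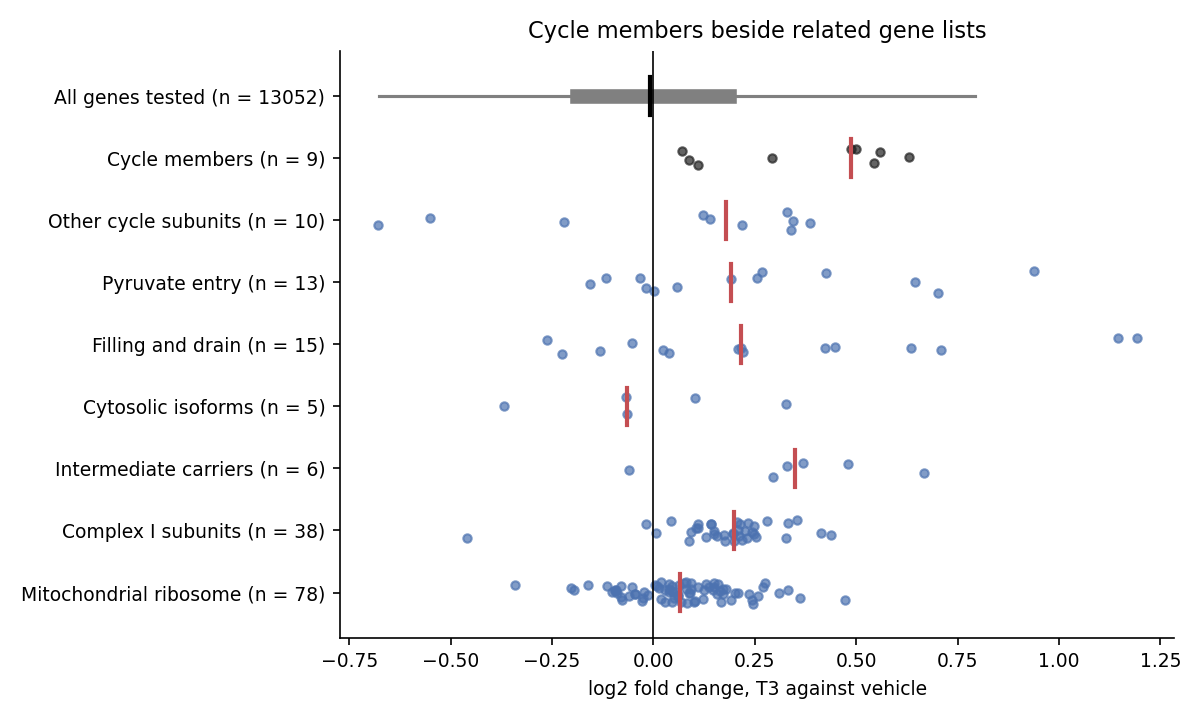
Log2 fold change of T3 against vehicle (x axis) for each gene (points) of the cycle members and of related lists, with the list median in red; the grey bar above spans the 25th to 75th percentile of all genes tested, its thin line the 5th to 95th and the black mark their median. The cycle members have a median of 0.49 and run from 0.07 to 0.63, and none lies below 0.

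Markers of cell state also differed between the groups, in both directions. Of 12 absorptive enterocyte markers 6 were called higher, 1 lower and 5 neither. Their sum ran from 69373 to 75728 normalized reads with vehicle and from 107231 to 123129 with T3. Most of that rise in the sum came from Sis (mean 15566 to 37607) and Slc5a1 (9033 to 20113), while Fabp2 fell from 7892 to 5001. Of 8 crypt stem cell markers 7 were called lower and none higher, with sums from 100485 to 115768 and from 69578 to 78713. None of these markers was at 0 in all libraries. In such bulk samples a change in the number of cells of a type and a change in RNA per cell cannot be told apart, and the part of these markers in the result was not tested.

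The 5 genes outside the cycle whose levels followed the members most closely over the 6 libraries were Usp2, Trpm4, Ppp2r5b, H2-T23 and Ero1lb. Likeness was Pearson's r between log2(value + 1) of a gene and the mean standardized level of the 9 members, among 10151 named genes with a mean of at least 100 normalized reads. Usp2, a ubiquitin-specific protease, stood at 341, 366 and 380 with vehicle and at 737, 706 and 643 with T3, with r = 0.9999. For Ero1lb, the last of the 5, r was 0.9994. As a description this measure is weak, since the libraries fall into the groups compared, and 359 of the 10151 genes had r above 0.99.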

How the data were processed

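RNA of organoids given T3 or vehicle was sequenced in 6 libraries, 3 per group, with directional libraries per the labels' protocols. The submitters' processing notes name STAR, Subread and DESeq2. Whether counting used strand is not stated there or in the labels. The build is mm10, per the file headers. Per library, the deposited values are reads of each gene after scaling and rounding by the authors, a normalized score and not a count: their mean equalled the deposited mean column to within 0.833 in every gene. Scaled and rounded values are no longer counts of reads, so no count model was run. The authors' deposited table also holds log2 fold changes, p-values with adjusted p-values and, under other headings, exon lengths and positions. At an adjusted p-value under 0.05 the authors' deposited table called 6 of the 9 members, all but Idh3b, Idh3g and Fh1.

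Genes that reached 10 normalized reads in 3 or more libraries were tested with limma 3.58.1 (R 4.3.3) on log2(value + 1), with a mean-variance trend and Benjamini-Hochberg adjustment over all 13052 genes. Fold changes are on that log2(value + 1) scale. Ratios were tested with scipy 1.17.1. The members and gene lists were chosen with earlier results of these data known. Named genes are the 9 members, all tested cycle subunits, up to 4 called genes with the smallest p-value in each pathway list, and the 5 genes most like the members. A few genes that this rule or the marker lists hold are counted but not reported here by name. Alternatives were other pseudocounts, filters, scalings and variance models, each library left out in turn, a replicate block, and the authors' own test. A second deposited table, a subset of the first, was not used.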

Additional observations from a re-analysis of the deposited data

How the results depend on the processing

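Across 16 alternatives the number of members called higher was 6 or 7 and none was called lower. Fh1 and Idh3g were called in none of them, and at equal column totals stood at log2 0.0036 and 0.021. Of the member calls only that of Idh3b changed. Its adjusted p was 0.0333, with log2 0.11, in the analysis reported. The call was lost with upper-quartile scaling (log2 0.064, adjusted p = 0.206), with equal column totals (0.043, adjusted p = 0.357), without the mean-variance trend (0.11, adjusted p = 0.0689), with a replicate block (0.11, adjusted p = 0.0732) and in the authors' deposited table (0.11, adjusted p = 0.0605). Without single libraries Idh3b ran from 0.091 to 0.12, and its call was lost without vehicle replicate 1, vehicle replicate 2, T3 replicate 1 or T3 replicate 2. Pyruvate entry genes called lower were 1, but 2 with equal column totals, 0 in the authors' deposited table and 0 to 1 without single libraries. Genes that fill, drain or carry, cytosolic isoforms included, were called lower in 3 cases, but in 5 after upper-quartile scaling and in 7 at equal column totals. Over all genes the share of calls that were higher was 53.6%, but 43.0% after upper-quartile scaling and 38.8% at equal column totals. The 5 ratios kept their direction in all alternatives run, and leaving out 1 library raises the smallest exact permutation p to 0.2.

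Replicate numbers gave no visible pairing of the libraries. Deviations from the group mean correlated at -0.070, 0.028 and -0.057 between vehicle and T3 libraries of the same number. For unlike numbers the values ran from -0.048 to 0.095. With 3 libraries per group and no such label, whether the libraries were paired cannot be settled. With the replicate block 2933 genes were called higher and 2472 lower, in place of 3135 and 2716, and 6 members were called.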

Other observations

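Fh1 and Idh3a varied very little between vehicle libraries. The SD of Fh1 was 2.31 normalized reads around a mean of 6657, where the square root of the mean is 81.6, and 11 of 13052 genes tested had a coefficient of variation that low or lower. For Idh3a the SD was 9.54 around 7104, and 21 genes were at or below its coefficient of variation of 0.134%. The limma standard errors draw on the spread of other genes of like level and do not rest on these values alone.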
